A study of Mus musculus with 6 samples.

Results

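Hedgehog signalling was followed through 9 genes in the sciatic nerve of 25-day-old mice. They were picked by gene name: the ligands Dhh, Shh and Ihh, the receptor Ptch1, the ligand-binding inhibitor Hhip, the signal transducer Smo and the transcription factors Gli1, Gli2 and Gli3. All 9 had a probe set of their own among the 20239 named genes measured. Each of 6 Affymetrix arrays held whole sciatic nerve RNA of 1 biological replicate, taken here as 1 mouse. The 3 mutant mice were DhhCre::Sip1 flox/flox, with Cre expressed from the Dhh promoter, which is active in the Schwann cell lineage. The 3 control mice were Sip1 flox/flox, so both groups carried the floxed alleles and the control genotype lists no Cre. Sip1 is another name of Zeb2, a zinc finger transcription factor. The labels do not say how the DhhCre allele was made or whether it carries any transcribed part of Dhh, which limits what the Dhh probe set can show in the mutants.

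In the nerve, Schwann cells make desert hedgehog (Dhh), which acts on neighbouring mesenchymal cells and is needed to build the perineurium, the sheath around each nerve fascicle. A hedgehog ligand binds Ptch1 and relieves its block of Smo, and Smo then switches Gli2 and Gli3 from repressors to activators. Gli1, Ptch1 and Hhip are themselves turned on by the pathway in many tissues, and Ptch1 and Hhip damp it by holding ligand. The comparison asks how these transcripts differed between mutant and control nerves.

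Of the 9 genes, the inhibitor, the receptor and the GLI factors were higher in the mutants. Hhip rose 9.1-fold, Gli2 2.1-fold, Gli1 and Gli3 1.93-fold each, and Ptch1 1.54-fold, while Dhh, Shh, Ihh and Smo did not pass (limma, Benjamini-Hochberg adjusted p under 0.05 over all 20239 genes). So 5 of the 9 were higher and none was lower, where 5.74% of all genes were higher and 3.89% lower. At an unadjusted p under 0.05, 7 of the 9 were higher and 0 lower, where 13.7% of all genes were higher and 8.67% lower. The median log2 difference of the 9 was 0.62, against −0.02 over all genes. The Hhip controls are not shown to be above background, so its 9.1-fold is a ratio of deposited values only. All values below are log2 values as deposited, differences are mutant minus control, means carry their SD with n = 3 mice in each group, and SE is the moderated standard error. In whole nerves, more cells of a type and more RNA per cell cannot be told apart.

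The arrays had medians between 8.0 and 8.08 and values between 3.55 and 14.52, and their number limits the precision. Zeb2 itself was lower in every mutant (10.96, 10.66 and 11.01) than in any control (11.67, 11.57 and 12.02), with a difference of −0.88 (limma adjusted p = 0.0137); where its probes lie relative to the floxed exon is not known here. Of 6 measured Schwann cell markers, 5 lay above the array medians in every array, and Gfap was at 6.75 to 7.12 in the controls, below them. The nerves held very different amounts of muscle: the mean of 12 skeletal muscle markers was 12.8 in mutant 2 and 12.71 in control 2, against 7.69 to 10.74 in the other 4 arrays.

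**Figure D1:**
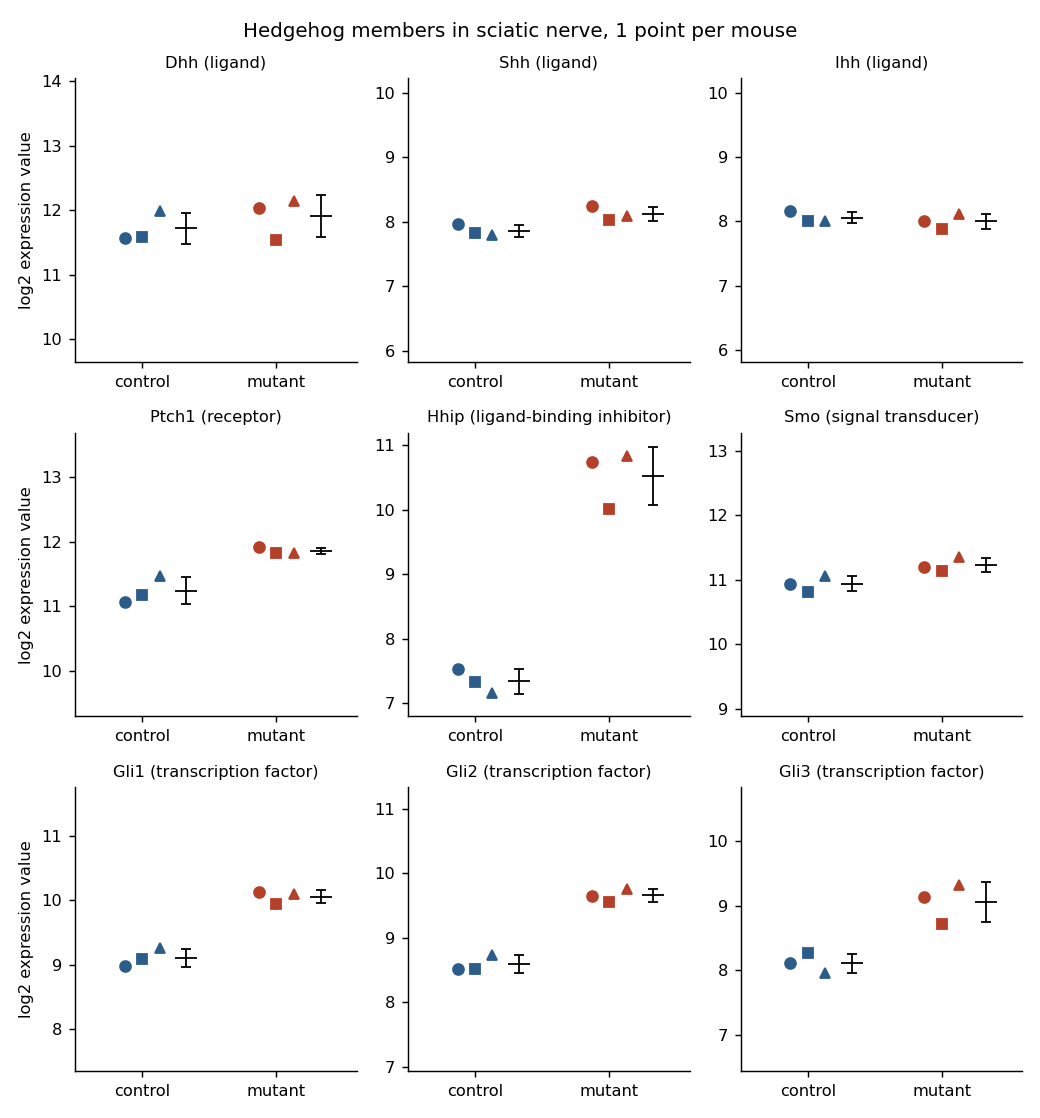
Log2 expression value (vertical axis, the same span in each panel) of each hedgehog gene in the 3 control and 3 mutant mice. Circles, squares and triangles are the mice numbered 1, 2 and 3, and bars show the mean and SD. Hhip has the widest gap, from at most 7.53 in controls to at least 10.01 in mutants, and Dhh and Ihh overlap.

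Dhh, the ligand of Schwann cells and the gene whose promoter drove Cre, was at 12.03, 11.54 and 12.15 in mutants 1 to 3 and at 11.57, 11.59 and 11.99 in controls 1 to 3. The groups overlapped, and the lowest of the 6 values was that of mutant 2. Dhh differed by 0.19 (SE 0.19), with a 95% confidence interval of −0.26 to 0.64 and a limma adjusted p of 0.623, which does not show that the groups were alike. The 6 measured Schwann cell markers did not move together in the same arrays. S100b, a calcium-binding protein, fell by 1.51, Erbb3, the neuregulin receptor, fell by 1.14 and Gfap rose by 4.55, while Sox10 (−0.74), Ngfr (−0.59) and Cdh19 (0.03) did not pass.

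Shh, the ligand best known from limb and neural tube and made by Schwann cells after injury, was at 8.25, 8.03 and 8.09 in the mutants, against control values of 7.97, 7.83 and 7.8. The groups did not overlap, but the gap was small. The difference of 0.26 (SE 0.09, 95% confidence interval 0.03 to 0.48) did not pass over all genes (limma adjusted p = 0.162), though it passed with array weights (adjusted p = 0.0382). Array weights raised the calls over all genes from 1948 to 3655. The adjusted p of Shh over the alternatives ran up to 0.487.

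Ihh, the ligand of growing cartilage, was at 8.0, 7.88 and 8.11 in the mutants, against control values of 8.16, 8.0 and 8.01. These ranges overlapped and Ihh differed by −0.06 (SE 0.10), with a 95% confidence interval of −0.29 to 0.17 and a limma adjusted p of 0.775. Of the 3 ligands, 0 passed the test and 1, Shh, had an unadjusted p under 0.05. No detection calls were used here, so it is not known whether Shh and Ihh lay above array background.

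Hhip, a membrane-anchored protein that captures hedgehog ligands, was at 10.75, 10.01 and 10.83 in the mutants, against control values of 7.53, 7.33 and 7.16. Every mutant lay far above every control, with mutant 2, a muscle-rich nerve, the lowest of the mutants. The means were 10.53 ± 0.45 and 7.34 ± 0.19, and Hhip rose by 3.19 (SE 0.23), with a 95% confidence interval of 2.65 to 3.72 and a limma adjusted p of 0.000577. It was the 12th largest rise among 20239 genes. The Hhip controls lay below the array medians and are not shown to be above background, so the 9.1-fold is a ratio of deposited values only. Leaving out any 1 array moved it only between 3.04 and 3.45, with an adjusted p of at most 0.00451.

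Ptch1, the receptor that silences Smo until ligand arrives, was at 11.92, 11.82 and 11.83 in the mutants, against control values of 11.06, 11.17 and 11.47. The mutants sat close together above all controls, and control 3 was the nearest to them. Ptch1 rose by 0.62 (SE 0.12), with a 95% confidence interval of 0.34 to 0.91 and a limma adjusted p of 0.021. Ptch1 no longer passed when mutant 1 (adjusted p = 0.1), mutant 3 (0.0859), control 2 (0.0709) or both arrays numbered 2 (0.109) were left out, with differences of 0.59 to 0.63.

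Because Hhip and Ptch1 both hold ligand at the cell surface and both rose, their promoters are shown. They are the 250 bases before the gene start, 5′ to 3′ on the gene's strand, from RefSeq on build GRCm38.p6. Hhip lies on the minus strand at chr8:80058009-80058258, and Ptch1 on the minus strand at chr13:63565736-63565985. Capitals mark CCACCC, the middle of the GLI consensus GACCACCCA, searched on both strands.
Hhip: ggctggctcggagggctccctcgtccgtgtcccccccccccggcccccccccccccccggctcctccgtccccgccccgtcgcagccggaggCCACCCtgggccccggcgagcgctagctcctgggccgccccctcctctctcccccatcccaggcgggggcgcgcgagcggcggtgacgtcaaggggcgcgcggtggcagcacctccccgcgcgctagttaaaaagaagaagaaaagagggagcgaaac
Ptch1: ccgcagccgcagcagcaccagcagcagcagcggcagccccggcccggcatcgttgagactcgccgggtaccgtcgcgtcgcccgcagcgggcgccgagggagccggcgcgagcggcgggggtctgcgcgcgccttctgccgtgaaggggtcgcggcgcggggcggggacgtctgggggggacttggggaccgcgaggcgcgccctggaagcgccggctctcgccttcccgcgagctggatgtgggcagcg

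The Hhip window held CCACCC once, beginning 158 bases before the gene start, and the Ptch1 window did not hold it. Windows of 250 bases before to 50 after the start were on hand for 7 of the 9 genes: Dhh, Ihh, Ptch1, Hhip, Smo, Gli2 and Gli3. None of the 7 held GACCACCCA on either strand, even with 1 mismatch, and of all 32851 RefSeq windows 0.253% held it exactly and 6.74% with up to 1 mismatch. CCACCC, which every exact GACCACCCA contains, was in 6 of the 7 windows, all but that of Ptch1, and in 31.5% of all windows. The 7 windows were 61.7% to 76.3% G and C, and the shares over all windows were not matched for this. The counts therefore do not show that CCACCC is enriched in the 7. A match is only a description of letters, and no match says only that these letters are not in this window.

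Smo, the transducer held down by Ptch1, was at 11.2, 11.13 and 11.35 in the mutants, against control values of 10.93, 10.81 and 11.06. The mutants lay just above the controls, the gap between mutant 2 and control 3 being the narrowest. The difference of 0.29 (SE 0.10, 95% confidence interval 0.05 to 0.54) did not pass (limma adjusted p = 0.148) and stayed short of it in all 19 alternatives, with adjusted p between 0.0504 and 0.442.

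Gli1, the GLI factor that acts as an activator and is the most used readout of the pathway, was at 10.12, 9.94 and 10.1 in the mutants, against control values of 8.98, 9.08 and 9.25. The groups were well apart and tight. Gli1 rose by 0.95 (SE 0.10), with a 95% confidence interval of 0.71 to 1.19 and a limma adjusted p of 0.00246.

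Gli2, the main activator at the start of a response, was at 9.65, 9.56 and 9.76 in the mutants, against control values of 8.51, 8.51 and 8.74. Its groups were slightly further apart than those of Gli1. Gli2 rose by 1.07 (SE 0.10), with a 95% confidence interval of 0.83 to 1.32 and a limma adjusted p of 0.00169. Both Gli1 and Gli2 passed in all 19 alternatives, with adjusted p of at most 0.0213 and 0.0163.

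Gli3, the GLI factor that mainly represses without ligand, was at 9.14, 8.72 and 9.32 in the mutants, against control values of 8.11, 8.27 and 7.96. The mutants were above the controls but spread more widely, mutant 2 being the lowest. Gli3 rose by 0.95 (SE 0.17), with a 95% confidence interval of 0.55 to 1.35 and a limma adjusted p of 0.0151. Gli3 lost its call when mutant 1 (adjusted p = 0.0732) or mutant 3 (0.0563) was left out.

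All 3 mutant values were above all 3 control values in 7 of the 9 genes, Shh and Smo included, as they were in 16.3% of all genes. Between mice of the same number, the difference ran from 2.67 (number 2) to 3.67 (number 3) for Hhip and from 0.36 (number 3) to 0.85 (number 1) for Ptch1. For Gli1 it was 0.85 to 1.14, for Gli2 1.02 to 1.14, and for Gli3 0.46 (number 2) to 1.37 (number 3).

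Differences between pairs of these genes were also taken within each array, for genes picked with their rises known. Hhip minus Gli1 shifted by 2.24 from controls to mutants, Hhip minus Ptch1 by 2.56 and Gli1 minus Ptch1 by 0.33. In each of the 3 pairs every mutant value lay above every control value. Hhip minus Gli1 was 0.06 to 0.73 in the mutants and −2.09 to −1.44 in the controls. Each shift had a two-sided exact permutation p of 0.1, the smallest that 3 mice against 3 can give. That test could not go lower whatever the values, so no conclusion on unequal rises is drawn from it.

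Of 81 further pathway genes in 5 lists, 76 were measured: 10 rose, 1 fell and 65 did not pass, with a median difference of 0.08. Over all genes 5.74% were higher and 3.89% lower, shares that also stand beside the counts of the single lists below. The rises lay among surface proteins that bind ligand, among reported targets and in the cilium, the organelle in which Smo and the GLI factors meet.

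**Figure D2:**
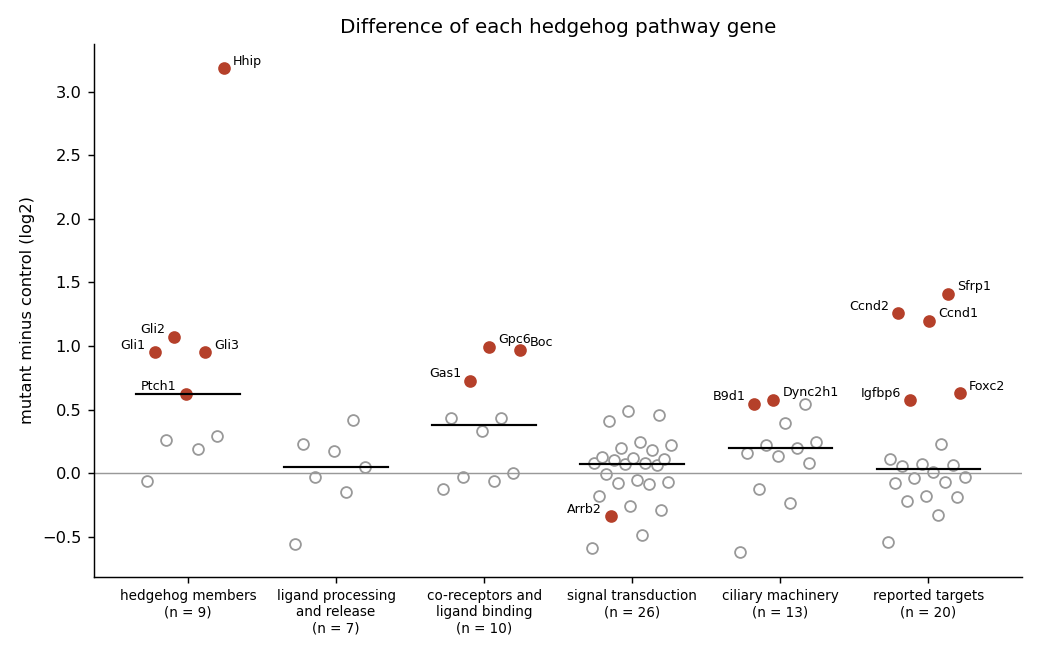
Difference of log2 values, mutant minus control (vertical axis), for the 9 hedgehog genes and each other pathway list (horizontal axis, with the number measured). Filled red points passed the test, open grey points did not, and black lines are medians. Hhip at 3.19 stands above all others, the co-receptor list has its median at 0.38, and the signal transduction list is centred near zero.

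Among co-receptors and ligand-binding proteins, 3 of 10 rose, none fell and 7 did not pass (median 0.38). Boc, a co-receptor that helps Ptch1 bind ligand, was at 10.24, 10.22 and 10.17 in the mutants, against control values of 9.22, 9.23 and 9.26. Each group was within a range of 0.07 and the gap between them was wide (difference 0.97, SE 0.07, limma adjusted p = 0.000694). Gpc6, a glypican of the cell surface, rose by 0.99 (SE 0.10, limma adjusted p = 0.00186), with its controls at 10.65, 10.66 and 10.66.

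Gas1, another co-receptor, was at 10.65, 10.43 and 10.79 against 10.03, 10.08 and 9.59, without overlap, control 3 being lowest. It rose by 0.73 (SE 0.16, limma adjusted p = 0.0333), but lost the call when mutant 1 (adjusted p = 0.128), mutant 3 (0.137), control 1 (0.0556), control 3 (0.051) or both arrays numbered 2 (0.0514) were left out, and with the muscle score as a covariate (0.0501). Boc and Gas1 are known to be lowered by hedgehog signalling in some embryonic tissues. Cdon, the third of these co-receptors, chosen here after its values were seen, had a difference of −0.06 (adjusted p = 0.819).

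None of 7 measured genes of ligand processing and release passed (median 0.05), and 2 were higher at an unadjusted p under 0.05, as 13.7% of all genes were. Hhat, which attaches the palmitate that hedgehog ligands need, had the smallest p, with values of 8.28, 7.87 and 8.3 against 7.66, 7.74 and 7.79 (difference 0.42, limma adjusted p = 0.108). It passed without mutant 2 (adjusted p = 0.0168), without both arrays numbered 2 (0.049) and with array weights (0.0133).

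Of 26 measured genes between Smo and the GLI factors 1 fell and none rose (median 0.08), where 3.89% of all genes were lower and 5.74% higher. At an unadjusted p under 0.05, 4 were higher and 4 lower, where 13.7% of all genes were higher and 8.67% lower. The first count is near its share, and the second lies above its share on few genes. The gene that fell was Arrb2, a beta-arrestin that binds Smo, at 9.33, 9.18 and 9.27 against 9.59, 9.57 and 9.63 (difference −0.34, limma adjusted p = 0.0438). This call was lost without any 1 of the 6 arrays, with adjusted p between 0.0824 and 0.16, in a fit blocked by mouse number (0.0894), with the muscle score (0.0711) or sex (0.1) as a covariate, and without both arrays numbered 2 (0.152), which makes 10 of 19 alternatives. In the blocked fit 2 other pathway genes were lower, Kif3a and Mycn.

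Of 13 measured ciliary genes 2 rose, none fell and 11 did not pass (median 0.2). The largest difference in size was a lower value, that of Kif3a (−0.62), named after its values were seen. Every mutant lay below every control for Kif3a, but it did not pass (limma adjusted p = 0.104). It was called lower with array weights, with the replicate block and with the fat score as a covariate. Dync2h1, the motor of return transport in the cilium, rose by 0.58 (limma adjusted p = 0.0192), and B9d1, a protein of the ciliary gate, rose by 0.54 (adjusted p = 0.0347). Leaving out mutant 1, mutant 3, control 1 or control 2 ended the Dync2h1 call, at adjusted p of 0.0977, 0.0938, 0.0538 and 0.0669, as did leaving out both arrays numbered 2 (0.0601) and sex as a covariate (0.0539). B9d1 passed without mutant 2 (0.0201), but leaving out any other single array ended its call (0.0554 to 0.132), as did centring the arrays (0.0591), the muscle score (0.0551), sex (0.0662) and leaving out both arrays numbered 2 (0.0581).

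Of 20 measured genes reported elsewhere as hedgehog targets 5 rose, none fell and 15 did not pass (median 0.03). Sfrp1, a secreted Wnt antagonist, had the largest rise, from 9.58 ± 0.16 to 10.99 ± 0.31 (difference 1.41, SE 0.17, limma adjusted p = 0.0037). The cell cycle genes Ccnd2 (1.26) and Ccnd1 (1.2) rose also, as did the mesenchymal transcription factor Foxc2 (0.63). The fifth, Igfbp6, named after its values were seen, rose by 0.57. Without both arrays numbered 2, Ccnd2 (adjusted p = 0.0544) and Foxc2 (0.0546) did not pass. Several of these genes respond to other pathways too, and Foxf1, Foxf2 and Osr1, named after their values were seen, stood at −0.08, −0.19 and −0.18. Mycn, also named after its values were seen, had the lowest difference of the list (−0.55). Every mutant lay below every control for Mycn, but it did not pass (limma adjusted p = 0.0996).

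Markers of perineurial cells and of nerve fibroblasts were compared in the same arrays. Over all genes 5.74% were higher and 3.89% lower, shares to set beside each count of markers that passed. Of 10 perineurial markers 7 rose, none fell and 3 did not pass, and the mean of the list was 11.1 to 11.25 in the mutants and 10.05 to 10.38 in the controls. Moxd1, a monooxygenase-like protein, rose by 2.03, Tenm2, a teneurin, by 1.56, Cldn1, a tight junction claudin of the perineurium, by 1.53, and Casq2, a calcium-binding protein, by 1.16, with limma adjusted p between 8.29e-05 and 0.0102. Casq2 lost its call when mutant 3 was left out (0.0529).

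Of 8 endoneurial fibroblast markers 3 rose, none fell and 5 did not pass. Among the 5 were Sox9 at −0.005 and Osr2, the lowest of the list, at −0.22. The list mean was 9.68 to 9.98 in the mutants and 9.25 to 9.37 in the controls. Those that rose were the transcription factors Meox1 (1.57) and Etv1 (1.55) and the receptor Pdgfra (0.51), with limma adjusted p from 0.00364 to 0.0209. Leaving out mutant 1, mutant 3, control 2, control 3 or both arrays numbered 2 ended the Pdgfra call, at adjusted p of 0.105, 0.101, 0.0609, 0.0569 and 0.0521. Of 8 epineurial fibroblast markers 2 rose, Cd34 (0.74) and Comp (0.41), and 6 did not pass, Clec3b at −0.04 among them, and the list mean of 10.16 to 10.45 overlapped the controls' 9.78 to 10.23. Cd34 lost its call when mutant 1 (0.0555) or mutant 3 (0.0581) was left out, and Comp did not pass in 6 of 18 alternatives, with adjusted p of at most 0.123. The part of these cells in the rises of Hhip, Ptch1 and the GLI genes was not tested.

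**Figure D3:**
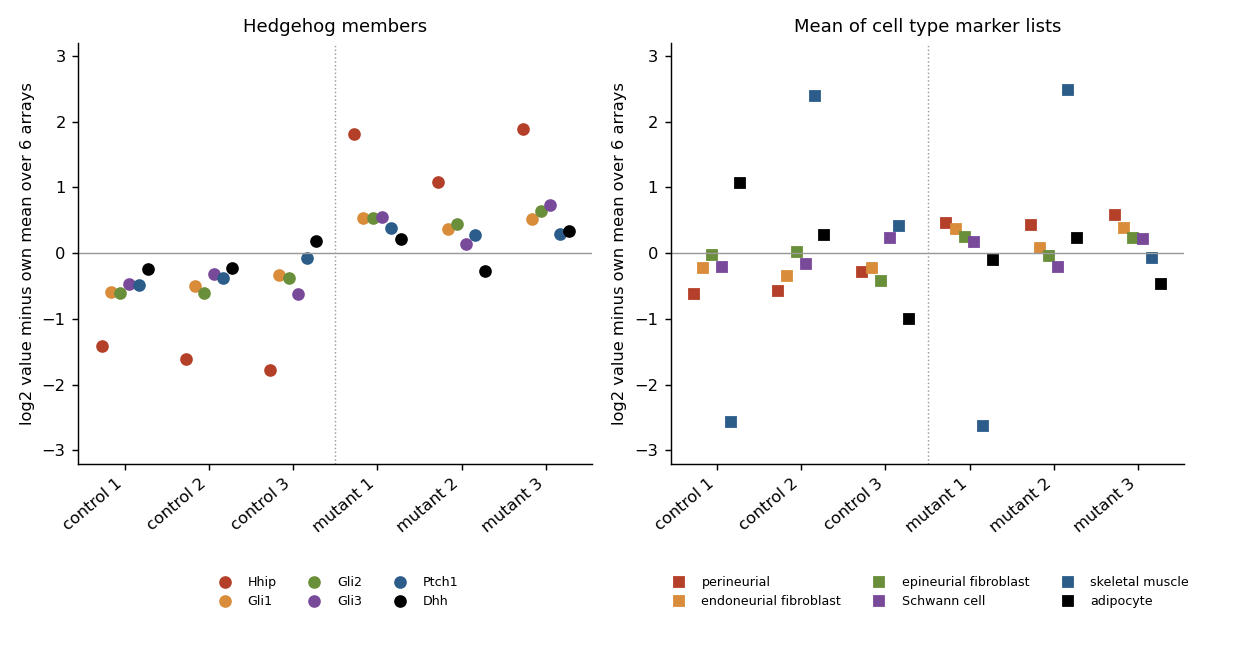
Log2 values of hedgehog genes (left) and means of cell type marker lists (right) in each of the 6 arrays, each minus its own mean over the arrays. Hhip, the GLI genes, Ptch1 and the perineurial and endoneurial fibroblast means are higher in every mutant than in every control, whereas the muscle and adipocyte means vary within both groups.

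Among the Schwann cell markers Gfap, an intermediate filament that Schwann cells lose when they myelinate, was higher by 4.55. The Erbb3 call ended when mutant 1 (0.0635), mutant 3 (0.051) or both arrays numbered 2 (0.071) were left out. Of 8 endothelial markers 2 fell, none rose and 6 did not pass (median −0.08), with differences from −0.57 (Kdr) to 0.38 (Cdh5). Vwf (−0.43) and Cldn5 (−0.42) fell, at limma adjusted p of 0.0283 and 0.035 (0.0592 and 0.0503 with the replicate number as a block). Their calls were lost in 8 and 9 of 19 alternatives.

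None of 8 pericyte and smooth muscle, 8 macrophage, 12 skeletal muscle or 9 adipocyte markers passed. At an unadjusted p under 0.05, 1 of the pericyte and smooth muscle markers was higher and 1 lower, 3 macrophage markers were higher, and none of the muscle or adipocyte markers was past it. Over all genes these shares were 13.7% higher and 8.67% lower, which a single marker of 8 is close to. The 3 of 8 macrophage markers lie above the share, on few genes. The 8 macrophage differences ran from 0.08 to 0.41 (median 0.32), with a mean of 8.96 to 9.25 in the mutants and 8.75 to 9.01 in the controls. The smallest p in these lists were those of Acta2, smooth muscle actin (0.29, limma adjusted p = 0.173), Mrc1, a macrophage receptor (0.42, 0.134), Myh1, a fast muscle myosin (−0.69, 0.851) and Lep, the adipocyte hormone leptin (−0.86, 0.539). Mrc1 passed with array weights (0.0423) and with sex as a covariate (0.0478). With the muscle score as a covariate the differences of Hhip, Gli1, Gli2, Gli3 and Ptch1 were 3.17, 0.95, 1.07, 0.95 and 0.62, and all 5 passed.

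The genes most like each member were the 3 with the smallest root mean square difference over the 6 arrays, after each gene's own mean was subtracted. For Hhip they were the protease Corin (0.136 log2 units), the potassium channel Kcnj10 (0.178) and the synaptic adhesion protein Slitrk1 (0.194), which rose by 2.97, 3.06 and 3.05. For Gli1 they were Lbp (0.041), Fhl2 (0.055) and Eya2 (0.0552), with rises of 0.98, 1.0 and 0.96. For Gli2 they were the keratin Krt19 (0.0517), which is also on the perineurial list, Aff3 (0.055) and Dtx4 (0.0554), with rises of 0.99, 1.06 and 1.01.

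For Gli3 the nearest profiles were those of the adenylyl cyclase Adcy7 (0.055), Capn6 (0.0732) and Mro (0.0735), which rose by 0.99, 0.98 and 1.07. For Ptch1 they were Fam78b (0.0568), the Wnt ligand Wnt6 (0.0655) and the BMP antagonist Nbl1 (0.0695), which rose by 0.68, 0.72 and 0.54, and control 3 was the highest control for each of these 3 as for Ptch1. Leaving out any single array but control 3 ended the Fam78b call (adjusted p from 0.0535 to 0.103). Nbl1 passed without control 3, but leaving out any other single array ended its call (0.0832 to 0.176). Adcy7 lost its call when mutant 1 (0.0881), mutant 3 (0.0756) or control 3 (0.0575) was left out, and Mro when mutant 1 was (0.0519). These likenesses are over 6 arrays in 2 groups and describe these arrays only.

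**Figure D4:**
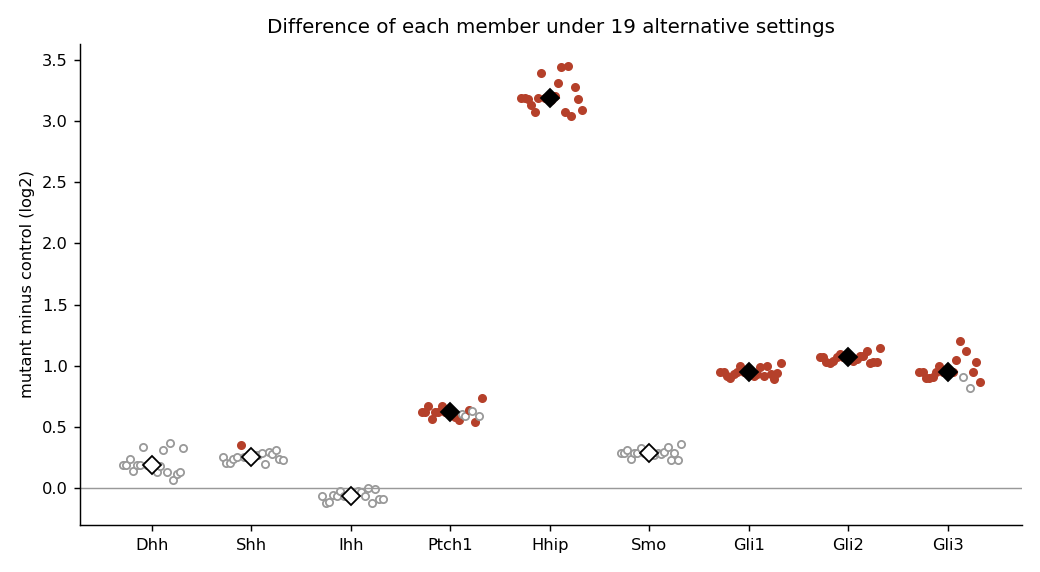
Difference of log2 values, mutant minus control (vertical axis), of each hedgehog gene in the reported fit (diamond) and in up to 19 alternative settings (circles), filled where the gene passed the test. Hhip, Gli1 and Gli2 are filled throughout, Ptch1 and Gli3 are open in 4 and 2 alternatives, and Shh is filled in 1.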

How the data were processed

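Per the labels, each of 6 sciatic nerve RNA samples was amplified, labelled with biotin and read on its own Affymetrix array with 1 colour. The authors deposited log2 values for 21225 gene-level probe sets. The log base was read from the values; no source used here states the background correction or normalization. The submitters' processing notes name limma without version or role. The platform annotation named 20239 probe sets by 1 symbol each, and the other 986 were tested only in an alternative. Genes were matched by symbol.

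Values were fitted with limma 3.58.1 (lmFit and eBayes, two-sided, R 4.3.3) over all named genes of all 6 arrays, and tested on simulated data. Figures were drawn with matplotlib 3.10.9. The sex covariate was not a label: each array was called female where Xist exceeded the mean of Y-linked genes. How the sexes were spread over the 2 groups is not reported here. The labels call the samples biological replicates and give both groups numbers 1 to 3, and 1 mouse per array was taken from this. Same-numbered arrays deviated together from their group means (correlations 0.36, 0.574 and 0.295 over all genes), though mutant 1 and control 3 correlated at 0.303, so a blocked fit was an alternative. The members, lists, named-gene rule (all members, the 4 largest changes that passed or the smallest p per list, and 3 nearest profiles per member that passed) and alternatives were chosen with earlier results of these data known. The search for CCACCC was added after that for GACCACCCA. Listed genes without a value were not analysed here.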

Additional observations from a re-analysis of the deposited data

How the results depend on the processing

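Of 19 alternatives, all kept 5, 4 or 3 members higher and 0 lower, except array weights, where Shh brought the count to 6. Without 1 array the count of higher members ran from 3 to 5, that of the 76 other pathway genes from 7 to 15 higher (10 with all arrays) and from 0 to 2 lower (1 with all arrays). With array weights 20 pathway genes were higher and 4 lower, and without both arrays numbered 2, 6 were higher and 0 lower. Calls over all named genes, in either direction, moved too. They numbered 1948 in the reported fit, 3655 with array weights and 1324 without both arrays numbered 2. Without 1 array they ran from 896 (mutant 1 left out) to 2021 (mutant 2 left out). The shifts in the counts of members and pathway genes are therefore not shown to be particular to these genes. The lower pathway genes numbered 2 without the lowest 50% of genes, with repeated quantile normalization, with the replicate block and with the muscle score, 5 with the fat score and 0 with sex as a covariate. The cause was not tested. The replicate block changed no call of the 9 members. Leaving out 1 array moved Ihh between −0.12 and 6.3e-05 (without mutant 2) and Myh1 between −2.13 and 0.59 (without control 2), with 0.4 without mutant 1; neither passed. Of 1001 values of named genes under alternatives, 900 kept direction and call, 92 lost the call, 6 gained it and 3 changed sign. Shh and Ihh fall among the lowest 50% of genes and have no value there.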
